A study of Mus musculus with 19 samples.

Results

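The 5 tRNA genes of the mouse mitochondrial cluster Trp, Ala, Asn, Cys and Tyr (mt-Tw, mt-Ta, mt-Tn, mt-Tc and mt-Ty) were followed in sperm small RNA. A read was counted when it lay within 1 of these tRNAs with its CCA tail, on the sense strand and with at most 1 mismatch. They are 5 of the 22 mitochondrial tRNA genes and of the 5757 small RNA genes used as reference. They held 16892 reads of 2303 distinct sequences, out of 2370351 reads of mitochondrial tRNAs and 711662713 reads in all. All mice were C57BL/6J wild-type males. Control mice received corn oil and DCHP mice received 10 mg/kg/day of dicyclohexyl phthalate, a plasticizer, by gavage for 4 weeks from an age of 8 weeks, and sperm was taken from the cauda epididymis after lysis of somatic cells. RNA of 15 to 50 nt was cut from a gel. PANDORA-seq libraries (4 control, 5 DCHP) were made from RNA treated with AlkB, which removes some methyl groups from bases, and with T4PNK, which converts fragment ends to ones that adapters can join. Traditional libraries (5 control, 5 DCHP) lacked these treatments by their name, and their steps are not described separately in the sources used here. The treatment label names DCHP in every library, so control and DCHP follow the library titles.

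Mitochondrial tRNAs carry amino acids to the ribosomes that make the mitochondrially encoded subunits of the respiratory chain. They are cut out of long transcripts of both DNA strands, and an enzyme then adds CCA, to which the amino acid is attached. Pieces of tRNAs are an abundant class of small RNA in sperm, and PANDORA-seq was devised because methylated bases and unusual ends keep many such pieces out of ordinary libraries. The cluster is known for lying on both strands and for enclosing, between the Asn and Cys genes, the origin at which replication of the light strand begins.

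The cluster spans 377 bases of the mitochondrial chromosome in GRCm38 (chrM:4950-5326, GENCODE M21). mt-Tw (4950 to 5016) lies on the plus strand. mt-Ta (5018 to 5086), mt-Tn (5089 to 5159), mt-Tc (5192 to 5257) and mt-Ty (5260 to 5326) lie on the minus strand. The gaps between neighbours are 1, 2, 32 and 2 bases. The whole tRNAs are shown because every fragment below is placed by its base in them, counted from 1 at the 5′ end, and capitals mark the anticodon and the added CCA.
mt-Tw: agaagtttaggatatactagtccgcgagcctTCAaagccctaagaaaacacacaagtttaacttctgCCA
mt-Ta: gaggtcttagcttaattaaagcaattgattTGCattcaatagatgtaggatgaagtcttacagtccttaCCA
mt-Tn: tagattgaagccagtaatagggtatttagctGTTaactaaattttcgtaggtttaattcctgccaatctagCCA
mt-Tc: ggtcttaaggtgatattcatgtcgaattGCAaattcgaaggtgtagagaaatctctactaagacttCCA
mt-Ty: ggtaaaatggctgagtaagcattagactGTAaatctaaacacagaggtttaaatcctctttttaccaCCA

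The most abundant fragments of each tRNA, up to 2 per method, are printed next, because the pieces that lead in PANDORA-seq and in traditional libraries can be compared by eye. Capitals again mark anticodon bases and bases of the CCA tail. mt-Tw gave the same leading pair in both methods, from base 54 to base 68 or 69.
mt-Tw, both methods: aagtttaacttctgC
mt-Tw, both methods: aagtttaacttctgCC
mt-Ta, both methods: tagatgtaggatgaa
mt-Ta, PANDORA-seq: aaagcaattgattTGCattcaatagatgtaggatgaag
mt-Ta, traditional: atagatgtaggatgaag
mt-Tn, PANDORA-seq: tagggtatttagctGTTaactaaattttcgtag
mt-Tn, PANDORA-seq: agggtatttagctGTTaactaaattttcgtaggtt
mt-Tn, traditional: tgaagccagtaatagggtatttagctG
mt-Tn, traditional: tgaagccagtaatagggtatttagctGT
mt-Tc, PANDORA-seq: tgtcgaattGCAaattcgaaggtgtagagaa
mt-Tc, PANDORA-seq: tgtcgaattGCAaattcgaaggtgtag
mt-Tc, traditional: tcgaaggtgtagagaaat
mt-Tc, traditional: tcgaaggtgtagagaa
mt-Ty, PANDORA-seq: tcctctttttaccaCC
mt-Ty, PANDORA-seq: aaatcctctttttaccaC
mt-Ty, traditional: ggtaaaatggctgagtaagcattagactG
mt-Ty, traditional: ggtaaaatggctgagtaagcattagactGT

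Libraries held 21588335 to 56506344 reads of 15 to 45 nt. Annotated miRNA took 1.04% to 1.37% of the reads in PANDORA-seq and 4.54% to 16.9% in traditional RNA-seq, so levels per total read and per miRNA read differ between methods. The 5 germ cell miRNAs used as markers of the tissue summed to 87.1 to 462 RPM (reads per 1e6 total reads of a library) in traditional libraries and to 0.925 to 6.48 RPM in PANDORA-seq, where 1 of them had no read in either group. Mir122, a miRNA of liver, served as a marker of a tissue that the sample should not hold. It was found at 783 to 10716 RPM in 9 traditional libraries and at 70134 RPM in traditional control replicate 2. The 4 blood miRNAs reached 167 RPM in traditional control, and the 5 of epididymal epithelium 4430 RPM in traditional DCHP. In bulk RNA, fewer cells of a type and less RNA per cell cannot be told apart. The study describes its sperm libraries as biological replicates of mice, while the labels do not name the animal, and p-values measure the spread between these libraries.

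mt-Tw carries tryptophan and, unlike its nuclear counterpart, reads the codon UGA as well as UGG. Its reads were spread unevenly over libraries. In traditional control replicates 1 to 5 it stood at 6.05, 32.1, 4.55, 2.82 and 2.85 RPM. In traditional DCHP replicates 1 to 5 it stood at 4.72, 36.2, 15.4, 5.59 and 4.23 RPM. Replicate 2 was the highest of each group, followed in DCHP by replicate 3, and the groups overlapped. In PANDORA-seq it had 1, 3, 9 and 4 reads in the control libraries (0.0393, 0.113, 0.208 and 0.0708 RPM). In PANDORA-seq of DCHP sperm it had 5, 19, 1, 2 and 0 reads (0.106, 0.569, 0.0252, 0.0698 and 0 RPM), and the 0 allows up to 3 reads, or 0.0680 RPM. In RPM every PANDORA-seq library was below every traditional library. Per miRNA read this did not hold, since PANDORA-seq DCHP replicate 2 stood above replicate 5 of traditional control and of traditional DCHP.

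The 4 traditional libraries with the most mt-Tw were also the 4 with the most Mir122. These were control replicates 2 and 1 (Mir122 at 70134 and 10716 RPM) and DCHP replicates 2 and 3 (10008 and 7814 RPM). In PANDORA-seq, the library with the most mt-Tw, DCHP replicate 2, had Mir122 at 111 RPM, and only control replicate 2 was higher, at 129 RPM. The part of RNA from other cells in the mt-Tw level was not tested.

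mt-Ta, the alanine tRNA, had the highest mean level of the 5 in every group, per total read and per length. In traditional RNA-seq it stood at 7.17, 18.6, 16.8, 12.5 and 18.2 RPM in control and at 24, 13.7, 20.9, 19 and 11.8 RPM in DCHP. In PANDORA-seq it stood at 2.28, 3.89, 5.32 and 2.99 RPM in control and at 6.11, 2.79, 4.70, 5.13 and 2.70 RPM in DCHP. In RPM the methods did not overlap, while control and DCHP overlapped in both. Per miRNA read the methods overlapped in control and in DCHP. Per kilobase of tRNA, mt-Ta ranked 8 of the 22 mitochondrial tRNAs in both PANDORA-seq groups and 9 and 10 in traditional control and DCHP. mt-Tw ranked 20 in both PANDORA-seq groups and 12 in both traditional groups.

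The asparagine and cysteine tRNAs flank the replication origin and were low. In traditional libraries mt-Tn ran from 2.14 to 6.93 RPM in control, with a median of 3.69, and from 4.54 to 6.53 RPM in DCHP, with a median of 5.59. Its PANDORA-seq levels ran from 0.347 to 0.511 RPM in control and from 0.249 to 0.528 RPM in DCHP. In traditional libraries mt-Tc ran from 2.38 to 6.07 RPM in control, with a median of 3.20, and from 3.09 to 5.03 RPM in DCHP, with a median of 4.2. In PANDORA-seq mt-Tc ranged from 0.0786 to 0.509 RPM in control and from 0.204 to 0.419 RPM in DCHP. For both genes, in RPM, the exposure groups overlapped within a method and the methods did not overlap. Per miRNA read the methods overlapped for mt-Tc in control and in DCHP, and for mt-Tn only across exposure groups. The share of all small RNA genes whose methods do not overlap is not given here. Per kilobase, mt-Tn ranked 16 or 17 of 22 and mt-Tc 18 of 22 in every group.

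mt-Ty, the tyrosine tRNA, stood at 4.52, 11.5, 2.56, 1.66 and 1.88 RPM in traditional control and at 2.25, 4.75, 3.4, 3.4 and 1.36 RPM in traditional DCHP. Control replicate 2, the library with the most Mir122, was again the highest. In PANDORA-seq mt-Ty ranged from 0.189 to 0.578 RPM in control and from 0.297 to 0.604 RPM in DCHP, below every traditional library. Per miRNA read the methods overlapped for mt-Ty in control and in DCHP. Per kilobase of tRNA, traditional control gave 58 ± 26.2 for mt-Tn, 52.3 ± 22 for mt-Tc and 63.2 ± 58.7 for mt-Ty (RPM per kilobase, SD, n = 5), which differed by less than the spread of any of them. mt-Ta (203 ± 67.2) and mt-Tw (138 ± 180) differed by less than the spread of mt-Tw there. In PANDORA-seq control the order was mt-Ta (50.3 ± 18.2), mt-Tn (5.61 ± 0.966), mt-Ty (4.67 ± 2.60), mt-Tc (3.78 ± 2.64) and mt-Tw (1.54 ± 1.05, SD, n = 4 each), and the 3 in the middle differed by less than the spread of mt-Ty or mt-Tc. The 5 genes together made up a median of 2.85% and 3.18% of mitochondrial tRNA reads other than mt-Th in PANDORA-seq control and DCHP, and of 4.18% and 4.51% in traditional control and DCHP. mt-Th was left out of this share because over all libraries its reads outnumbered those of the other 21 together.

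**Figure D1:**
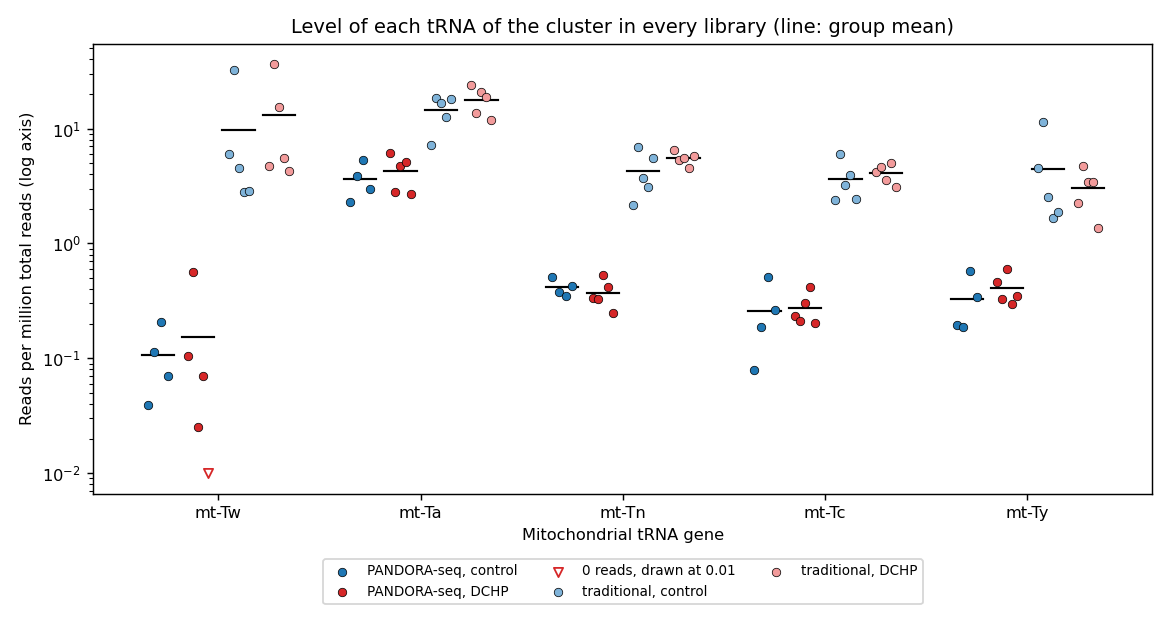
RPM (log axis) of the 5 tRNAs in each of the 19 libraries, with a line at each group mean. For every tRNA the PANDORA-seq points lie below the traditional points, and the control and DCHP points of a method overlap. The share of all small RNA genes separated in this way is not given here. Per miRNA read the separation was not complete for any of the 5. For mt-Tw single libraries reach 32.1 RPM in traditional control and 36.2 RPM in traditional DCHP.

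The first comparison asks how much the choice of method changed the measured level. Per total read, all 5 tRNAs were lower in PANDORA-seq than in traditional RNA-seq, in control and in DCHP sperm, although per miRNA read mt-Ta lay slightly above 0 (edgeR's quasi-likelihood test, called at adjusted p under 0.1 and fold over 2). For mt-Tw, mt-Tc and, in control, mt-Ty the call says little, because their traditional libraries brought them into the test. Most small RNA genes were also called lower, 58% of the 1167 tested in control and 66.5% of the 1314 tested in DCHP. All of them passed the same filter, and many needed their traditional libraries for it. Over the PANDORA-seq libraries of both exposures alone, 735 genes passed. The shares called lower and the change of the median gene, here and below, carry that limit. Called higher were 13.5% and 10.3%, and called in either direction 71.5% and 76.8%. mt-Ta, which had at least 58 reads in every library, fell by 2.01 on the log2 scale (SE 0.39) in control and by 2.06 (SE 0.32) in DCHP, with adjusted p from edgeR of 0.000365 and 6.22e-05. mt-Tn, with at least 10 reads in every library, fell by 3.37 (SE 0.42) and by 3.88 (SE 0.27), with adjusted p from edgeR of 9.19e-06 and 8.77e-08. These changes stood 0.23 below the median gene in control and 0.19 above it in DCHP for mt-Ta, and 1.58 and 1.63 below it for mt-Tn, since the median gene itself fell by 1.79 and by 2.25.

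mt-Tw and mt-Tc in both tests, and mt-Ty in control, entered only because of their traditional libraries, so that a difference was built into their inclusion. In DCHP mt-Ty met the filter by its PANDORA-seq libraries alone. mt-Tw had 10 or more reads in 0 of 4 PANDORA-seq control and 1 of 5 PANDORA-seq DCHP libraries, mt-Tc in 2 of 4 and 3 of 5, and mt-Ty in 2 of 4 and 4 of 5. The fitted change of mt-Tw was -6.41 (SE 0.96) in control and -6.45 (SE 1.01) in DCHP. mt-Tc changed by -3.72 (SE 0.52) and -3.91 (SE 0.30), and mt-Ty by -3.70 (SE 0.66) and -2.85 (SE 0.37). The adjusted p of these 6 values lay between 8.77e-08 and 0.000202 by edgeR.

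Of the other 17 mitochondrial tRNAs, 15 could be tested in control, of which 11 were lower and 1, mt-Te, was higher in PANDORA-seq, with a median log2 change of -3.11 and a range from -5.79 to 1.28. In DCHP 16 could be tested, 11 were lower and none was higher, with a median of -3.43. These tRNAs passed the same filter, for which reads in traditional libraries could suffice.

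The size of the drop depended on what levels were divided by. Per miRNA read, the scale of the study for its small RNA species, the median gene moved up by 2.35 in control and by 2.59 in DCHP. On that scale mt-Ta was 0.46 (SE 0.49) and 0.41 (SE 0.37) higher in PANDORA-seq and passed in neither comparison. mt-Tw stood at -3.44 (SE 0.67) and -4.08 (SE 1.0) and mt-Tc at -1.25 (SE 0.60) and -1.43 (SE 0.37), both called lower, with the same limit that they were included because of their traditional libraries. mt-Tn was called lower in DCHP only (-1.39, SE 0.34), against -0.86 (SE 0.58) in control, and mt-Ty in neither (-0.98 and -0.41). The difference between control and DCHP in these changes, tested as an interaction on that scale, was called for none of the 5 (-0.53 for mt-Tn and 0.56 for mt-Ty, adjusted p 0.9998 by edgeR). On it, 35.9% and 39.0% of all genes were called lower, and higher calls made up 56.5% and 52.5% of all calls, instead of 18.8% and 13.4%. With TMM factors 47.8% and 48.7% of genes were called lower, and with DESeq2 44.9% and 45.6%. Higher calls then made up 37.3% and 33.7% (TMM) or 40.9% and 39.2% (DESeq2) of calls, and mt-Ta was called in neither comparison by either.

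**Figure D2:**
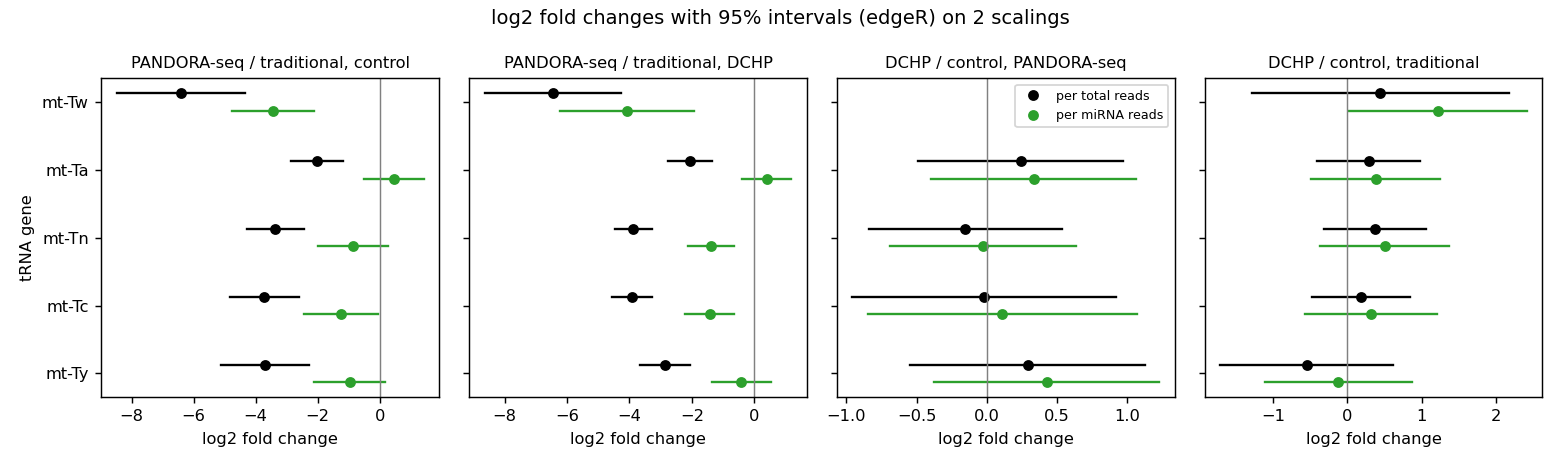
log2 fold changes of the 5 tRNAs with 95% intervals from edgeR, per total reads (black) and per miRNA reads (green), for PANDORA-seq against traditional RNA-seq in control and in DCHP and for DCHP against control in each method. Per miRNA reads mt-Ta moves to the other side of 0 in both method panels while mt-Tw stays at -3.44 and -4.08, and in the exposure panels every interval crosses 0 except the green one of mt-Tw in traditional RNA-seq (0.02 to 2.42). mt-Tw has no point for DCHP against control in PANDORA-seq because it had too few reads there.

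The second comparison, which the study also made for sperm RNA, asks whether DCHP exposure of the male changed these RNAs. None of the 5 tRNAs was called in either method. In PANDORA-seq 4 were tested, and the log2 change from control to DCHP was 0.24 for mt-Ta (95% interval -0.49 to 0.97), -0.15 for mt-Tn (-0.84 to 0.53), -0.02 for mt-Tc (-0.96 to 0.92) and 0.29 for mt-Ty (-0.55 to 1.12). Each had an adjusted p of 0.997 by edgeR, and mt-Tw had too few reads to be tested. In traditional RNA-seq the log2 change was 0.44 for mt-Tw (-1.29 to 2.18), 0.29 for mt-Ta (-0.41 to 0.98), 0.37 for mt-Tn (-0.32 to 1.05), 0.18 for mt-Tc (-0.47 to 0.84) and -0.55 for mt-Ty (-1.72 to 0.62), with adjusted p from edgeR between 0.592 and 0.801. Per miRNA read, mt-Tw changed by 1.22 there (0.02 to 2.42), with an unadjusted p of 0.0462 and an adjusted p of 0.870 by edgeR, and was not called. Per total read, the intervals left changes of 2-fold within reach of the error for mt-Tw, mt-Tn and mt-Ty in traditional RNA-seq. In PANDORA-seq they did so for mt-Ty. Per miRNA read, the intervals of mt-Ta and mt-Tc also reached past a 2-fold increase, in both methods. For mt-Tn in PANDORA-seq the interval stayed within 2-fold on both scales.

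In the background of these tests, 0.0% of the 735 genes in PANDORA-seq and 0.0% of the 1460 genes in traditional RNA-seq were called. DESeq2 also called none of the 5, and an unadjusted p under 0.05 by edgeR was reached by 31 and 128 genes, 0 of the 5 among them. The median gene changed by -0.04 in PANDORA-seq and by 0.36 in traditional RNA-seq. Relative to it, mt-Tw stood at 0.09, mt-Ta at -0.07, mt-Tn at 0.01, mt-Tc at -0.17 and mt-Ty at -0.91 in traditional RNA-seq. The other 17 mitochondrial tRNAs had a median of 0.20 over 14 tested in PANDORA-seq and of 0.62 over 16 tested in traditional RNA-seq, with 0 called.

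Single libraries decided the traditional values of mt-Tw and mt-Ty. Without DCHP replicate 2 the change of mt-Tw was -0.37 instead of 0.44, and without control replicate 2 it was 1.69. Without control replicate 2 the change of mt-Ty was 0.18 instead of -0.55. With reads of 18 to 45 nt only, mt-Tw changed by -0.73. By a test of the interaction, the response to DCHP passed as different in PANDORA-seq and traditional libraries for none of the 5 (log2 difference of -0.04 for mt-Tw, -0.05 for mt-Ta, -0.52 for mt-Tn, -0.19 for mt-Tc and 0.85 for mt-Ty, lowest adjusted p 0.967 by edgeR). In that test 0.0% of 1503 genes were called, 55 had an unadjusted p under 0.05, and DESeq2 called none of the 5.

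Single sequences were tested among the 20000 most abundant of each method per total read, a number the study also used. The study ranked its species per miRNA read and tested them with samr. It reported changed fragments of tRNA and rRNA with PANDORA-seq, so the 2 tests are not like for like. Of the 20000 sequences tested here 0.0% were called by edgeR in either method. An unadjusted p under 0.05 by edgeR was reached by 1048 and 1475. No sequence of the cluster was among the 20000 tested in PANDORA-seq, and 1 was among the 20000 tested in traditional RNA-seq. This was the 15-nt end of mt-Tw, aagtttaacttctgC, at 0.910, 1.98, 1.53, 0.735 and 0.207 RPM in control and at 0.465, 18.7, 6.05, 0.726 and 0.556 RPM in DCHP. DCHP replicates 2 and 3 were above all control libraries, and the other 3 were within their range. Its log2 change was 2.28 (SE 1.03), with an unadjusted p of 0.0483 and an adjusted p of 0.656 by edgeR. It was among the sequences tested through its high DCHP libraries, so the direction of this value is partly fixed by that choice. DCHP replicates 2 and 3 were also the 2 DCHP libraries with the most Mir122, and the part of other cells was not tested.

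Where the fragments began and ended differed between the genes. The shares that follow are of all reads of a tRNA, with the libraries of a method pooled, and are descriptions without a test. mt-Tw was read mainly from its 3′ end: in traditional RNA-seq 81.5% of its 4192 reads began at bases 50 to 55 and 93.6% ended at base 68 or 69, which are the first and second C of CCA. The same windows held 75% and 70.5% of its 44 PANDORA-seq reads. Reads of 15 to 17 nt made up 69% of mt-Tw in traditional RNA-seq, and 16.8% of its reads carried a mismatch. A read that short may match elsewhere in the nuclear genome, which was not used here, and 1.29% of the mt-Tw reads had an exact copy in a nuclear transcript.

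The 2 libraries with the most mt-Tw ended differently. In traditional control replicate 2, 1191 of 1671 reads ran to the second C and 456 to the first. In traditional DCHP replicate 2, 145 of 781 ran to the second C and 571 to the first. The last base of the tRNA was reached by 6 and 4 reads in them.

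Full CCA ends were rare in all 5 tRNAs. Reads that ended within 3 bases of the last base numbered 4647 in traditional RNA-seq and 110 in PANDORA-seq. Of them, 1.01% and 3.64% ended at the A of CCA, and 55.5% and 56.4% at its second C. mt-Tw gave 3973 and 35 of these reads, so the traditional shares mainly describe mt-Tw. Of the 46 mt-Tw reads to that A in traditional RNA-seq, 45 read C there and were counted through the allowed mismatch. The other 17 mitochondrial tRNAs, whose 3′-end reads were mostly mt-Th, rarely ended at the A of CCA either (3.14% in traditional, 0.66% in PANDORA-seq). Their ends at the second C made up 54.2% and 36.2%. Over all reads of a library the last base was A in 11.1% to 16.6% in traditional RNA-seq and in 16.4% to 21.8% in PANDORA-seq.

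mt-Ta was read from its middle. In both methods most reads ended at bases 54 to 58, in the T arm (71.1% in traditional and 74.8% in PANDORA-seq). They began at different places: 41.6% of traditional reads began at bases 38 to 40, past the anticodon, and 6.93% at bases 16 to 19. In PANDORA-seq 19.2% began at bases 38 to 40 and 44.2% at bases 16 to 19, in the D loop region. The 38-nt fragment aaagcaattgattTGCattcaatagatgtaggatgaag, from base 18 to base 55, had 74 reads with PANDORA-seq against 30 with traditional RNA-seq, although the tRNA as a whole had 1395 and 6135. The 17-nt fragment atagatgtaggatgaag had 2 and 246. The anticodon lay within 70.8% of PANDORA-seq reads and 29.8% of traditional reads.

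These shifts in mt-Ta could be tested, because it alone of the 5 had 20 or more reads in every library. Reads of 35 to 45 nt made up 55% ± 7.40 (SD, n = 4) in PANDORA-seq control and 18% ± 3.18 (SD, n = 5) in traditional control, with ranges of 45.7% to 63.1% and 14.7% to 22.9%. In DCHP they made up 54.3% ± 9.98 and 18.7% ± 9.37 (SD, n = 5 each), with ranges of 43.9% to 70.6% and 8.04% to 33.1%. The share was higher in PANDORA-seq by 1.62 on the log2 scale (SE 0.19, adjusted p of 5.16e-05 by edgeR) in control and by 1.55 (SE 0.33, adjusted p of 0.00203 by edgeR) in DCHP. Reads of 15 to 24 nt fell by 1.29 (SE 0.21 and 0.27) in both. Reads that began at base 1 made up 12.2% ± 2.58 in traditional control and 0.781% ± 0.954 in PANDORA-seq control. They were lower in PANDORA-seq by 3.99 (SE 0.61) in control and by 3.27 (SE 0.54) in DCHP, adjusted p of 0.000323 and 0.000515 by edgeR. This class had 4 and 13 reads in PANDORA-seq control and DCHP. It was tested only because of its traditional libraries, so a difference was built into its inclusion.

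In all, 4 of the 5 mt-Ta classes were called at adjusted p under 0.1 in each comparison, beside 79.6% of 54 tRNA classes in control and 71.4% of 70 in DCHP. The 4 include the class of reads from base 1, whose call says little because its traditional libraries brought it into the test. Reads of 25 to 34 nt did not pass (0.23 and 0.30), and the internal class, though called, moved by only 0.18 (SE 0.08) and 0.24 (SE 0.09). With same-numbered control libraries as blocks, its adjusted p in control was 0.239 by edgeR instead of 0.0673. Between control and DCHP, 0 of 4 mt-Ta classes in PANDORA-seq and 0 of 25 classes of the 5 tRNAs in traditional RNA-seq were called by edgeR, beside 0.0% of 48 and 0.0% of 114 classes, and none of either had an unadjusted p under 0.05. No second tool was run on the classes.

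**Figure D3:**
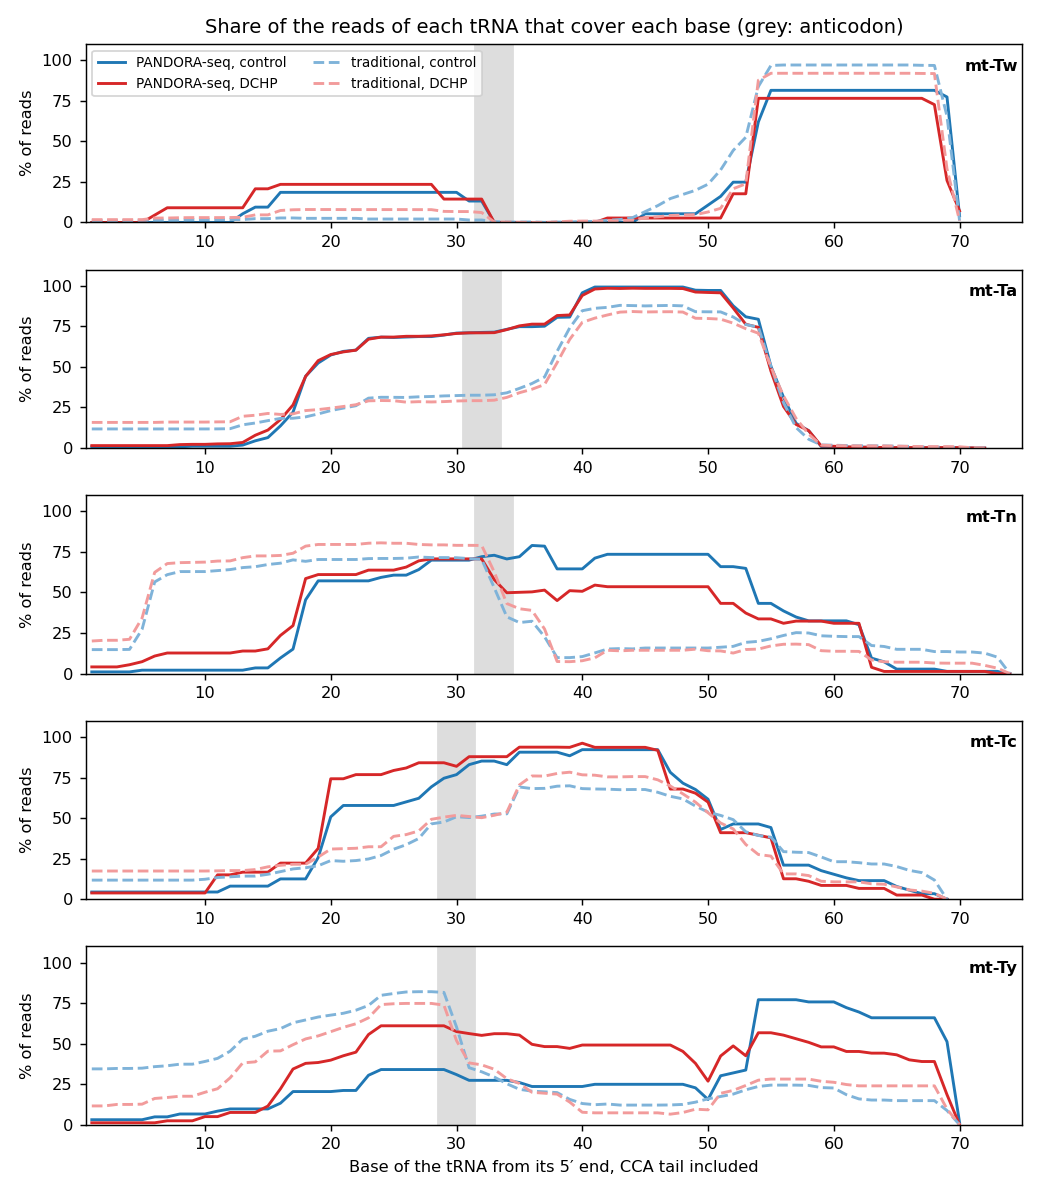
Share of the reads of each tRNA that cover each base from the 5′ end, computed as the group mean level over that base divided by the group mean level of the tRNA, for PANDORA-seq (solid) and traditional RNA-seq (dashed), with the anticodon in grey. mt-Tw is covered mainly from base 54 to base 69 in all groups, in mt-Ta and mt-Tc PANDORA-seq reads extend further back across the anticodon, and in mt-Tn and mt-Ty traditional coverage drops at it. The solid lines of mt-Ty rest on 54.5 control and 81 DCHP reads.

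mt-Tn reads covered the whole anticodon in 57.1% of PANDORA-seq reads and in 36.3% of traditional reads. In traditional RNA-seq 46.4% of its 1823 reads began at bases 5 to 7 and 17.6% at base 1, and 38.2% ended at base 32 or 33, the first 2 anticodon bases, while 27.0% ended at base 36 or 37, past it. The leading fragment tgaagccagtaatagggtatttagctG had 136 reads there and 0 of 133 in PANDORA-seq. In PANDORA-seq 48.1% of the reads began at bases 16 to 19 and 3.76% at bases 5 to 7, and the leading fragment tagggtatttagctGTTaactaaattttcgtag had 10 reads, against 1 in traditional RNA-seq. Ends at base 32 or 33 made up 13.5% of PANDORA-seq reads and ends at base 36 or 37 12.8%.

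In mt-Tc the main starts in PANDORA-seq lay before the main traditional ones, as in mt-Ta, while in mt-Tn they lay after them. In PANDORA-seq 47.4% of its 95 reads began at base 19 or 20, and both leading fragments, with 10 reads each, ran from base 20 across the anticodon. In traditional RNA-seq 6.73% of 1457 reads began there, 21.6% began at base 35 or 36, past the anticodon, and 14.6% at base 1. The leading pair of PANDORA-seq had 2 and 0 reads in traditional RNA-seq, and the leading traditional fragment tcgaaggtgtagagaaat had 84 and 0 reads in traditional RNA-seq and PANDORA-seq.

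mt-Ty reads inside the tRNA made up 53.8% in traditional and 49.1% in PANDORA-seq libraries, and shares by origin varied between groups. Reads of the 3′ end made up 58.7% in PANDORA-seq control and 40.7% in PANDORA-seq DCHP, against 15.8% and 21.1% in the traditional groups. In traditional DCHP they exceeded reads from base 1 (11.4%), as in PANDORA-seq, and in traditional control they did not (37.4%). In traditional RNA-seq 28.6% of its 1483 reads began at base 1 and 44.1% ended at base 29 or 30, at the first 2 anticodon bases. In PANDORA-seq 2.21% of its 135.5 reads began at base 1, 5.90% ended at base 29 or 30, and 45% began at bases 51 to 54, against 11% in traditional RNA-seq (reads that matched several genes equally well were divided among them, which gives fractions). The 16-nt end tcctctttttaccaCC had 24 reads with PANDORA-seq against 15 with traditional RNA-seq. The 29-nt fragment ggtaaaatggctgagtaagcattagactG had 157 reads in traditional RNA-seq, of which 120 were in control replicate 2. The share of mt-Ty that began at base 1 was 22.8% ± 19.2 in traditional control and 13.7% ± 10.6 in traditional DCHP (SD, n = 5 each), so that the pooled figure rests largely on 1 library. Of the mt-Ty reads in traditional RNA-seq, 19.8% had an exact copy in a nuclear transcript, and 10.5% had such a copy and were 18 nt or longer.

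**Figure D4:**
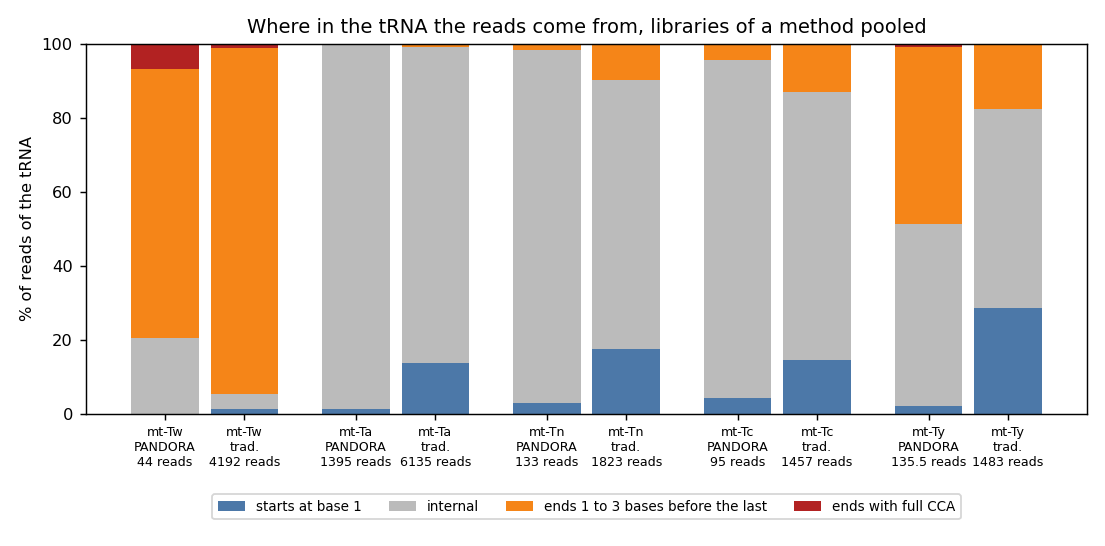
Share of the reads of each tRNA by place, in PANDORA-seq and traditional RNA-seq with the libraries of a method pooled. Reads begin at base 1, lie inside the tRNA, end 1 to 3 bases before the last base, or end at the last base of CCA. mt-Tw is nearly all 3′ ends in traditional RNA-seq (93.7%), mt-Ta is mostly internal in both methods (98.6% and 85.6%), and reads from base 1 are a larger share in traditional RNA-seq than in PANDORA-seq for mt-Ta, mt-Tn, mt-Tc and mt-Ty.

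Lengths followed these positions. The median read was 34 nt in PANDORA-seq and 19 nt in traditional RNA-seq over the 5 genes together. By gene, medians in PANDORA-seq and traditional RNA-seq were 16 and 16 nt for mt-Tw, 35 and 19 for mt-Ta, 27 and 28 for mt-Tn, 31 and 23 for mt-Tc, and 19 and 20 for mt-Ty. The medians of mt-Ta and mt-Tc were thus longer in PANDORA-seq, and those of mt-Tw and mt-Tn were within 1 nt. The pooled medians of mt-Ty hid opposite differences, with 18 nt in PANDORA-seq and 26 nt in traditional libraries in control and 24 nt and 18 nt in DCHP. Exposure groups had equal medians for mt-Ta in each method (35 nt in PANDORA-seq, 19 nt in traditional RNA-seq). For mt-Ty in traditional RNA-seq, reads of 15 to 24 nt made up 33% to 77.2% of the control libraries and 54.5% to 85.8% of the DCHP libraries, so the groups overlapped. In PANDORA-seq the medians of mt-Tn were 29 nt in control and 25 nt in DCHP, and the medians of mt-Ty and mt-Tn there rest on 54.5 to 81 reads a group.

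**Figure D5:**
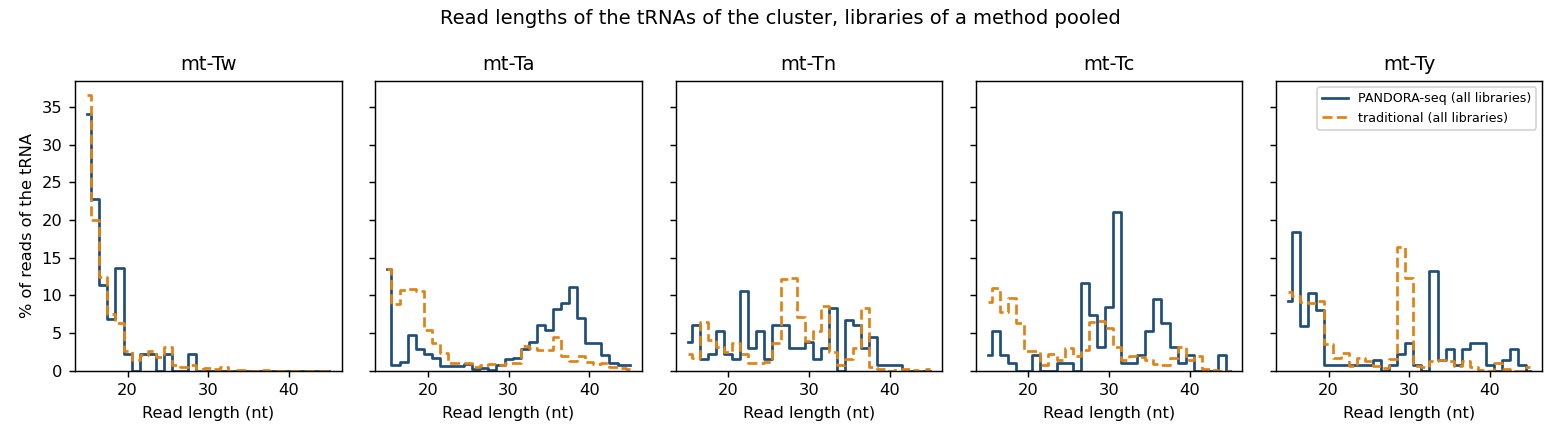
Read lengths (nt) of the 5 tRNAs as a percentage of the reads of the tRNA, in PANDORA-seq (solid) and traditional RNA-seq (dashed) with all libraries of a method pooled. mt-Tw peaks at 15 nt in both methods, mt-Ta is dominated by reads under 25 nt in traditional RNA-seq and has 52.8% at 35 to 45 nt in PANDORA-seq, and mt-Ty has a peak at 29 nt in traditional RNA-seq.

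Mismatched bases were examined where they lay at least 3 bases inside the read. Base 9 of many mitochondrial tRNAs is known to carry a methyl group, and such bases are often misread during reverse transcription. In traditional RNA-seq, 14.9% of 1097 mt-Tn reads over base 9 differed from the reference, 121 of them as A9G and 37 as A9T, and such reads were found in all 10 libraries (15.6% of control and 14.3% of DCHP reads). At the same base, mt-Ty differed in 14.5% of 461 reads, mainly as G9T, but only 2 control libraries and 1 DCHP library held 20 or more reads over it. mt-Tc differed in 6.13% of 212 reads. mt-Ta differed in 2.98% of 840 and mt-Tw in 19 of 79 reads, each in 3 libraries only. In traditional control and DCHP the shares were 7.06% and 0.389% for mt-Ta, 3.16% and 8.55% for mt-Tc and 16.1% and 7.32% for mt-Ty. For mt-Tw they were 17 of 28 and 2 of 51 reads. Exposure differences at base 9 were not tested. In PANDORA-seq this base was covered by only 1 read of mt-Tw, 17 of mt-Ta, 9 of mt-Tn, 4 of mt-Tc and 4 of mt-Ty, so that no comparison between methods could be made.

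The anticodon loop differed too. At the last anticodon base of mt-Tn, 100 of 353 traditional reads (28.3%) showed T34A, in all 10 libraries, and 0 of 65 PANDORA-seq reads did, which allows a share of up to 4.62%. At the last anticodon base of mt-Ty, 32.4% of 358 traditional reads differed, nearly all as A31G, against 7.44% of 60.5 PANDORA-seq reads. By exposure, the mt-Tn base differed in 32.9% of traditional control and 25.4% of traditional DCHP reads, and the mt-Ty base in 28.2% and 38.7%. These limits cover counting error only, since reads without molecular identifiers are not independent molecules, and the differences between methods were not tested.

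Because the cluster lies on both strands, exact reads of 18 to 45 nt were also counted on the strand opposite to each tRNA. Bases between the genes are in no transcript used here, so up to 2 of them in a read were accepted as any base. There were 0 in PANDORA-seq and 4 in traditional libraries opposite mt-Tn, 0 and 18 opposite mt-Ty, 5 and 91 opposite mt-Tc, and 19 and 47 opposite mt-Tw. Opposite mt-Tw they outnumbered the exact sense reads without CCA bases in PANDORA-seq, with 13 against 1 in control and 6 against 3 in DCHP, and numbered 28 against 21 and 19 against 64 in traditional control and DCHP. Opposite mt-Ta there were 84 such reads with PANDORA-seq against 596 with traditional RNA-seq, and the 2 strands can be told apart because each read is itself 1 strand. In traditional control libraries they stood at 0.646, 3.32, 1.21, 1.5 and 1.16 RPM and in traditional DCHP libraries at 1.42, 1.67, 1.37, 1.75 and 1.45 RPM. Control replicate 2 was the highest, the groups overlapped, and no test was made. In PANDORA-seq they ranged from 0.0393 to 0.439 RPM.

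These plus-strand reads had a sharp start. In traditional RNA-seq 82.2% began at chrM position 5017, and in PANDORA-seq 51.2%. Position 5017 is the single base between mt-Tw and mt-Ta, so a read that begins there begins with the first base after mt-Tw. The base was read as A in 97.6% of reads that reached it. The most frequent of these fragments, printed with the capital for position 5017, ran to 5038 (105 reads), 5041 (66 reads) and 5054 (46 reads).
plus strand, 22 nt: Ataaggactgtaagacttcatc
plus strand, 25 nt: Ataaggactgtaagacttcatccta
plus strand, 38 nt: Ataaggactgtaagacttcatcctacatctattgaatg

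The 38-nt fragment had 18 reads with PANDORA-seq against 28 with traditional RNA-seq, while the 22-nt fragment had 1 and 104. On the sense strand, exact reads of 18 to 45 nt that crossed an end of the encoded tRNA by bases other than CCA were seen for mt-Tc alone, with 9 reads in traditional control, 3 in traditional DCHP and 0 in PANDORA-seq. Any base was accepted between the genes, so these reads need not match the genome past the end. The 32 bases between mt-Tn and mt-Tc were not used here, so reads that run more than 2 bases into them were not looked for on either strand.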

How the data were processed

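For each library the authors deposited counts: distinct cleaned sequences of 15 to 45 nt with their number of reads, without normalization or molecular identifiers. The study analysed its reads with SPORTS1.1. Settings of adapter and quality trimming are not given in the sources used here. Each sequence was matched to GENCODE M21 small RNA genes (GRCm38, CCA added to mitochondrial tRNAs) in sense orientation, allowing 1 mismatch, and went to the genes with the fewest mismatches, divided equally among ties. No genome or nuclear tRNAs were used. RPM is reads per 1e6 total reads of a library. Genes with at least 10 reads in at least 4 libraries of a comparison were tested with edgeR 4.0.16 (quasi-likelihood, library size the total reads, R 4.3.3) and Benjamini-Hochberg adjustment over all genes. Calls needed an adjusted p under 0.1 and a fold over 2. Fragment classes of a tRNA with at least 20 reads in every library were tested as shares of its reads, at adjusted p under 0.1. A class itself needed at least 10 reads in at least 4 libraries. DESeq2 1.42.0 was an alternative. Scripts were tested on simulated counts.

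The 5 genes, the 17 other tRNAs and the markers were chosen with earlier results of these data known, and the windows of starts and ends and the bases examined for mismatches after the reads were seen. All 5 genes were named in every comparison, with up to 2 leading sequences per method. Library totals of 21588335 to 56506344 reads put 3 reads, the limit that a count of 0 allows, at 0.0531 to 0.139 RPM. No 2 libraries of a group were alike within counting error (chi-square per degree of freedom at least 97.9 over 36 pairs). Replicate numbers come from the titles, which do not say what they mark. Deviations of same-numbered control libraries of the 2 methods correlated in 4 of 4 pairs (r from 0.129 to 0.484). The paper states that sperm RNA of control and exposed sires went through both methods. The main fits were unpaired all the same, and only the replicate block used the numbers as pairs.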

Additional observations from a re-analysis of the deposited data

Results flagged for a closer look

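Each group's highest and lowest library was compared with the rest of its group for each tRNA, over 20 groups of values, and 2 stood apart by Dixon's criterion, which chance meets in about 1 in 20 groups. Both concern mt-Tw. Traditional control replicate 2 had 32.1 RPM, and the next library of the group had 6.05 RPM. PANDORA-seq DCHP replicate 2 had 0.569 RPM, from 19 reads, and the next had 0.106 RPM. Mir122 stood at 70134 RPM in the first library, the highest of all, and at 111 RPM in the other, the highest of its group. The part of other cells in these values was not tested.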

How the results depend on the processing

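Counts of called genes, classes and sequences were unchanged or within 1.5-fold under the alternatives run, except in the method comparisons. In control, 2 of the 5 tRNAs were called with miRNA reads as library size and 3 with DESeq2, which gave no p for mt-Tw, and in DCHP 3 with miRNA reads. mt-Ta was then higher in PANDORA-seq, by 0.46 in control and 0.41 in DCHP. It was also no longer called with TMM factors (-0.98 and -0.74) or DESeq2 (-0.82 and -0.44).

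Several values, not all of them near 0, changed sign and were not called. For DCHP against control in PANDORA-seq, mt-Tc became 0.11 per miRNA read, 0.090 with TMM, 0.059 with DESeq2, 0.042 with exact matches, 0.061 with reads of 18 to 45 nt and 0.24 with the replicate block. In traditional RNA-seq, mt-Ta became -0.00185 with TMM and -0.024 with DESeq2, mt-Tc -0.10 and -0.16, and mt-Tw -0.73 with reads of 18 to 45 nt. The interaction became 0.29 (TMM), 0.65 (DESeq2), 0.85 (18 to 45 nt) and 0.58 (at least 2 reads) for mt-Tw, 0.26 and 0.32 (TMM, DESeq2) for mt-Ta, and 0.16, 0.24 and 0.40 (TMM, DESeq2, at least 2 reads) for mt-Tc. The 25 to 34 nt share of mt-Ta became -0.10 in control and -0.016 in DCHP with reads of 18 to 45 nt.

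Leaving out 1 library at a time gave -0.27 to 0.50 for mt-Tc in PANDORA-seq, -0.37 to 1.69 for mt-Tw and -0.77 to 0.18 for mt-Ty in traditional RNA-seq, and interactions of -1.55 to 0.77 for mt-Tw, -0.21 to 0.20 for mt-Ta and -0.47 to 0.34 for mt-Tc. In the method comparisons 5 of 5 were called each time, which says little of mt-Tw and mt-Tc, and of mt-Ty in control, since they were included because of the traditional libraries where they are high. Of all genes, 71.5% in control and 76.8% in DCHP were called with every library in and no block. The replicate block kept 5 of 5 called in both and 0 in the exposure comparisons, and took the internal class of mt-Ta in control below the threshold (3 classes instead of 4). Between methods in DCHP, same-numbered libraries correlated with r from 0.0927 to 0.427. In 4 of 5 of these pairs r was over 0.1, and in 4 of 5 it was highest for the own number. Between exposures r ran from -0.267 to 0.319. Only the replicate block used replicate numbers. The other fits that compare methods, and the interaction, treat libraries that may share RNA as independent. An alternative without sequences copied in nuclear transcripts was added after seeing the data and changed no count of calls. Leaving out copies in the nuclear genome was not run, since no genome was used. Depth limits mt-Tw, mt-Tn, mt-Tc and mt-Ty in PANDORA-seq, with 0 to 25 reads per library.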
